A study of Mus musculus with 2 samples.

Results

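The respiratory chain genes described here are the genes for subunits of complexes I to V that either the mitochondrial genome or the nuclear genome encodes. They were taken by symbol: mt-Nd, mt-Co, mt-Cyt and mt-Atp genes, the Ndufa, Ndufb, Ndufc, Ndufs and Ndufv genes, the Uqcr genes, the Cox4 to Cox8 genes, the Atp5 genes, and Sdha, Sdhb, Sdhc and Sdhd, without pseudogenes and without the Ndufaf assembly factors. This gave 98 of 31053 features, of which 13 were encoded by mitochondrial DNA and 85 by nuclear DNA (84 symbols, since Atp5o has 2 identifiers). By complex, the nuclear members were 36 for complex I, 4 for complex II, 8 for complex III, 20 for complex IV (with Ndufa4 and Ndufa4l2) and 17 for complex V. Cyc1, a subunit of complex III, does not match these symbols and is in the list of electron carriers read at the end. Of the 98 features, 94 had at least 1 unique molecular identifier (UMI), and Cox7b2, Cox8b, Cox8c and 1 of the Atp5o features had none in either library.

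The libraries came from the hepatocellular carcinoma region of livers of C57BL/6 mice that were 17 months old and had eaten the CD-HFD diet for 15 months. One library was from mice given an inhibitor of FABP5, a cytosolic carrier of fatty acids, from month 13, and the other from control mice, and how the controls were treated and how many mice were in each library are not given in the sources used here. Tissue was digested with collagenase and, per the labels, an Annexin V kit was used to obtain live cells. Which Annexin V fraction was sequenced is not stated there. Droplet 3′ sequencing then gave 1 library per group, so no comparison between the groups has a replicate check. Every interval below is a 95% interval for counting error, and a difference beyond it is a difference between these libraries only.

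The respiratory chain sits in the inner mitochondrial membrane. Complexes I and II pass electrons to ubiquinone, complex III passes them on to cytochrome c, complex IV hands them to oxygen, and complex V, the ATP synthase, uses the proton gradient that complexes I, III and IV build. Complex II is encoded by nuclear genes alone, while the other complexes combine subunits from both genomes, and the mitochondrial subunits are made on a ribosome inside the organelle. In liver, hepatocytes are rich in mitochondria and oxidise fatty acids and amino acids, whereas mature neutrophils hold few mitochondria and draw mainly on glycolysis.

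The inhibitor library held 10649 barcodes and 68074929 UMIs, and the control library 9493 barcodes and 53378693 UMIs. More than 25% of the UMIs were mitochondrially encoded in 885 barcodes (8.31%) of the inhibitor library and in 2204 barcodes (23.2%) of the control library. In those barcodes, genes of proteins that hepatocytes secrete, such as Alb, took 1.87% of the UMIs outside the mitochondrial genome in the inhibitor library and 21.0% in the control library. The part of these barcodes in the mitochondrial values below was not tested. After limits on mitochondrial share, genes and doublets, 8753 inhibitor and 6461 control cells were kept, with median depths of 6280 UMIs in the inhibitor library and 3946 UMIs in the control library, and 18 barcode sequences of kept cells occurred in both libraries. The cells were grouped without use of the respiratory chain genes and named by markers, and 13 classes had at least 50 cells in each library. Most were leukocytes, although the labels call the sample liver cells. Levels are UMIs summed over the cells of a class per 1000000 UMIs of genes that mitochondrial DNA does not encode (CPM).

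The sum of the nuclear members was close to equal in the 2 libraries in most classes, while the sum of the mitochondrially encoded members was lower in the inhibitor library in 12 of 13 classes. The nuclear sum was higher in 7 and lower in 6 classes, by less than 10% in 10 of them and past 1.5-fold in none. T cell-like cells, with 2584 inhibitor and 2345 control cells, had a nuclear sum of 19698 CPM in the inhibitor library and 20192 CPM in the control library. Their mitochondrially encoded sum was 62619 CPM in the inhibitor library and 68186 CPM in the control library, a log2 ratio of -0.12 (-0.13 to -0.12). Proliferating-like cells were the exception in the mitochondrial sum, with 58256 CPM in the inhibitor library and 50355 CPM in the control library (log2 ratio 0.21). That direction turned in 2 alternatives: the log2 ratio was -0.17 among cells with at least 600 genes, and as a mean over cells the mitochondrial sum was lower in 13 of 13 classes, this one included. The count of classes depended on the processing: it was 9 of 13 classes with a mitochondrial limit of 10%, 7 of 12 with free RNA subtracted and 6 of 8 with each library clustered alone.

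**Figure D1:**
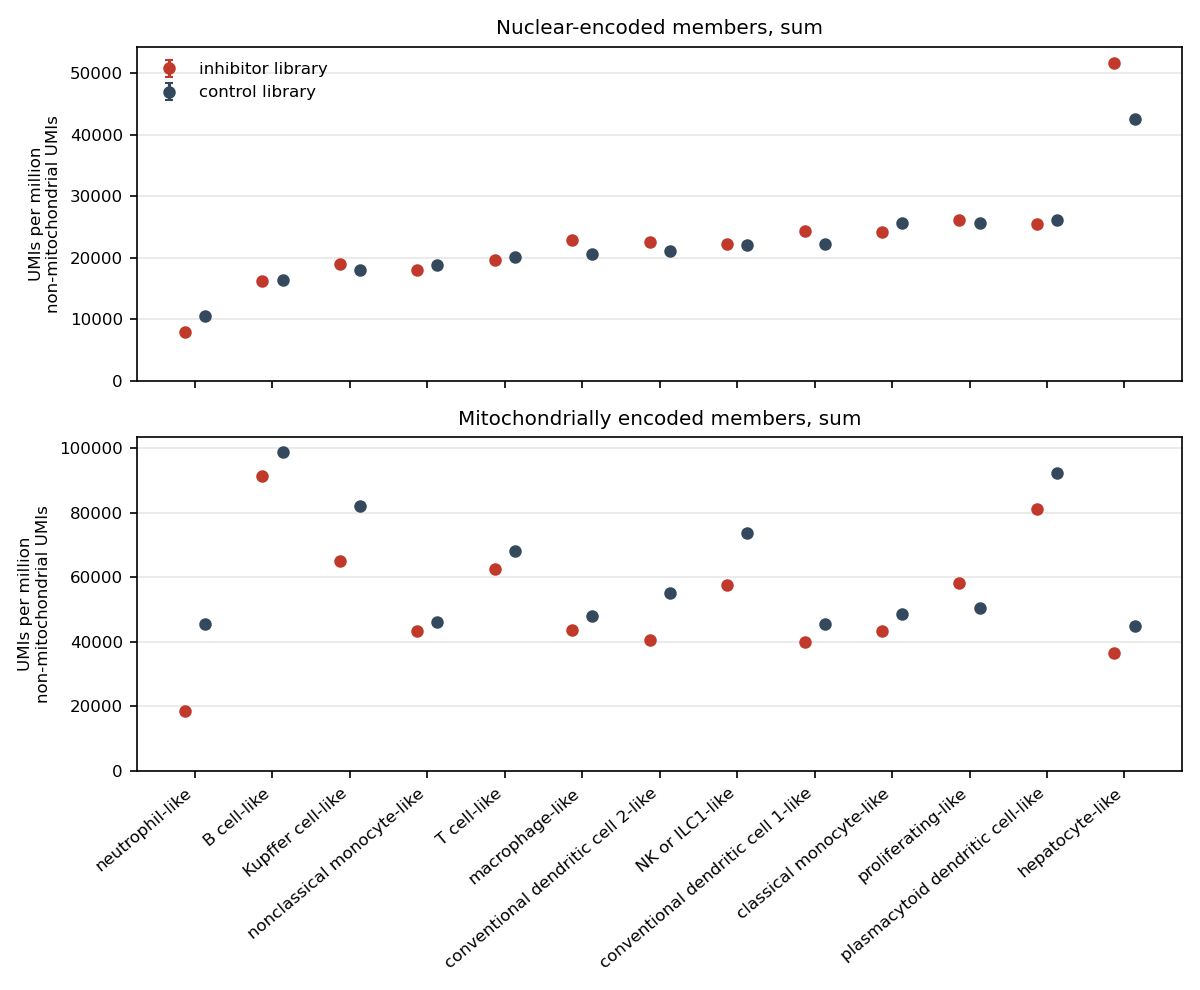
Summed UMIs of the nuclear-encoded members (upper panel) and of the mitochondrially encoded members (lower panel), in CPM, for each class, with the inhibitor library in red on the left and the control library in dark blue on the right; the exact counting intervals are mostly smaller than the points. The nuclear sums of the pair lie close together except in hepatocyte-like cells, at 51608 CPM in the inhibitor library and 42503 CPM in the control library, and in neutrophil-like cells, and the mitochondrial sum of the inhibitor library lies below that of the control library in every class but the proliferating-like one.

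The order of the classes by level was much the same in both libraries. Neutrophil-like cells had the lowest nuclear sum and hepatocyte-like cells the highest in each library, and the level of hepatocyte-like cells was 6.53-fold that of neutrophil-like cells in the inhibitor library and 4.04-fold in the control library. B cell-like cells had the next lowest nuclear sum in both libraries, 16243 CPM in the inhibitor library and 16432 CPM in the control library, and yet the highest mitochondrially encoded sum, 91239 CPM in inhibitor and 98948 CPM in control cells. Plasmacytoid dendritic cell-like cells came next by mitochondrial sum, with 81005 CPM in the inhibitor library and 92401 CPM in the control library, and Kupffer cell-like cells after them. The lowest mitochondrial sum was that of neutrophil-like cells in the inhibitor library. In the control library hepatocyte-like cells were lowest, and the intervals of the 4 classes at that end overlapped those of their neighbours. No class moved by more than 2 ranks in the nuclear order or more than 4 in the mitochondrial order.

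The number of mitochondrially encoded UMIs per UMI of a nuclear member does not depend on the denominator, and it was lower in the inhibitor library in 12 of 13 classes. B cell-like cells had the highest ratio, 5.62 in the inhibitor library and 6.02 in the control library. Hepatocyte-like cells had the lowest, 0.709 in the inhibitor library and 1.06 in the control library. The gap between the libraries was largest in neutrophil-like cells, at 2.37 in the inhibitor library and 4.33 in the control library (log2 ratio -0.87, -0.92 to -0.82). In nonclassical monocyte-like cells the ratios of 2.40 in the inhibitor library and 2.45 in the control library could not be told apart by counting error.

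Both sums were lower in the inhibitor library in 6 classes, and neutrophil-like cells (547 inhibitor and 800 control cells) had the lowest log2 ratio of each sum. Their mitochondrially encoded sum was 18730 CPM in the inhibitor library and 45484 CPM in the control library, a log2 ratio of -1.28 (-1.30 to -1.26), the only sum past 1.5-fold in any class. Their nuclear sum was 7908 CPM in the inhibitor library and 10509.7 CPM in the control library, a log2 ratio of -0.41 (-0.45 to -0.37). Each of the 5 complexes had a lower nuclear sum, and complex II and complex I were the lowest: complex II had 140 CPM in the inhibitor library and 210 CPM in the control library (log2 ratio -0.58), and complex I had 2043 CPM in inhibitor and 2890 CPM in control cells (log2 ratio -0.50). Complex V was the least apart, with 2376 CPM in the inhibitor library and 2978 CPM in the control library (log2 ratio -0.33).

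**Figure D2:**
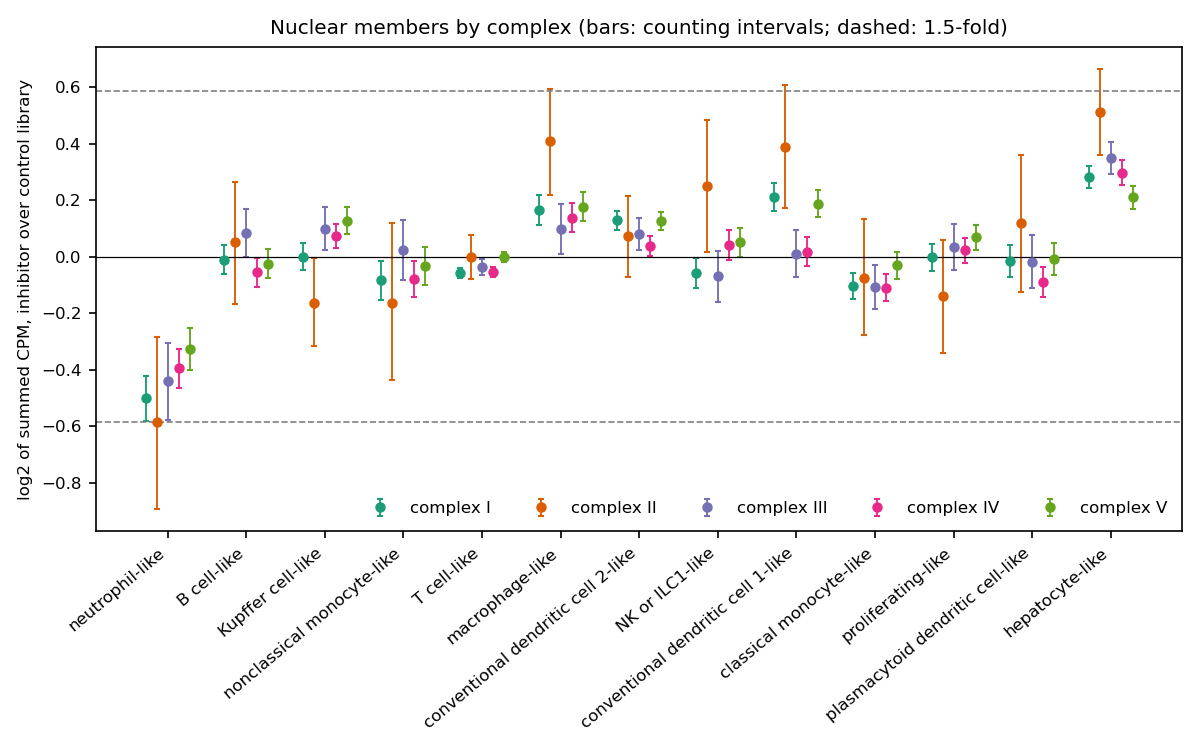
Log2 ratio of the summed CPM of the nuclear members of complexes I to V, inhibitor library over control library, in each class, with bars for the counting interval and dashed lines at 1.5-fold. All 5 complexes lie below 0 in neutrophil-like cells and above 0 in hepatocyte-like cells, where complex II is highest at 0.51, and most values of the other classes lie near 0.

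All 13 mitochondrially encoded genes were at least 1.5-fold lower in the neutrophil-like cells of the inhibitor library, each with its whole interval below 0. Of all nuclear genes with at least 20 UMIs in this class, 26.5% were as far lower and 4.6% as far higher. mt-Co1, a catalytic subunit of complex IV, had 2750 CPM in the inhibitor library and 6091 CPM in the control library (log2 ratio -1.15, -1.21 to -1.08). mt-Cytb, the only complex III subunit of the mitochondrial genome, had 1802 CPM in inhibitor and 5075 CPM in control cells (log2 ratio -1.49, -1.57 to -1.42). The proton channel subunit of the ATP synthase, mt-Atp6, had 3475 CPM in the inhibitor library and 8697 CPM in the control library. mt-Nd1, a membrane subunit of complex I, was the least apart, with 1051 CPM in inhibitor and 2035 CPM in control cells (log2 ratio -0.95). mt-Nd6, which is read from the opposite strand of the mitochondrial genome, had only 3 UMIs in the inhibitor library and 27 in the control library.

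Among the nuclear members in neutrophil-like cells, 32 of the 73 with at least 20 UMIs were at least 1.5-fold lower in the inhibitor library and 0 were as far higher. Their median log2 ratio was -0.49, against -0.22 over all nuclear genes tested, and 71 of 73 were lower, 45 of them with the whole interval below 0. The shares of all genes that were lower, or had such an interval, are not given here, and genes with more UMIs have narrower intervals. Among genes with at least 100 UMIs, 22 of 56 members were as far lower, beside 13.8% of all genes. The furthest apart was Atp5g1, one of the genes for the c subunit of the rotating ring of the ATP synthase, with 16.6 CPM (15 UMIs) in the inhibitor library and 62.0 CPM (96 UMIs) in the control library, a log2 ratio of -1.90 (-2.80 to -1.11). Of the other genes for that subunit, Atp5g2 had 38.7 CPM in the inhibitor library and 76.2 CPM in the control library (log2 ratio -0.98). Atp5g3 had 30.9 CPM in inhibitor and 34.9 CPM in control cells, with an interval that held 0. How reads shared by near-identical genes or pseudogenes were counted is not given in the sources used here, so values within such families are uncertain.

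Accessory subunits of complex I filled the other places among the 5 lowest nuclear members of this class. Ndufs6 had 28.7 CPM in the inhibitor library and 70.4 CPM in the control library (log2 ratio -1.29, -1.97 to -0.66). Ndufb3 had 29.8 CPM in inhibitor and 66.5 CPM in control cells (log2 ratio -1.16). Ndufc1 had 14.4 CPM in the inhibitor library and 36.8 CPM in the control library, and Ndufa1 had 70.7 CPM in inhibitor and 128 CPM in control cells. No member was higher with its interval above 0. The nuclear complex IV subunits with the most UMIs were nearer to each other: Cox4i1, a regulatory subunit, had 412 CPM in the inhibitor library and 519 CPM in the control library (log2 ratio -0.33, -0.51 to -0.15). Cox5a, a subunit on the matrix side, had 116 CPM in inhibitor and 179 CPM in control cells (log2 ratio -0.62). Uqcrh, the hinge protein of complex III, was about level, at 267 CPM in the inhibitor library and 271 CPM in the control library.

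Single neutrophil-like cells followed the sums. Mitochondrially encoded UMIs were a median 0.531% of a cell's UMIs in the inhibitor library (quartiles 0.301% and 1.19%) and 1.81% in the control library (quartiles 0.889% and 5.06%). The upper quartile of the inhibitor cells thus lay below the control median. Median depth was 1638 UMIs in the inhibitor library and 1956 UMIs in the control library.

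RNA of hepatocyte secreted proteins moved with the neutrophil difference. These genes had 379 CPM in the neutrophil-like cells of the inhibitor library and 3864 CPM in those of the control library, and all 20 measured genes were at least 1.5-fold lower, Alb at 77.3 CPM in inhibitor and 1413 CPM in control cells among them. The same list had a lower share in the inhibitor library in 13 of 13 classes, at 0.00981% to 0.0746% of non-mitochondrial UMIs outside hepatocyte-like cells in the inhibitor library and 0.0834% to 0.386% in the control library. Its part in the lower mitochondrial and nuclear sums was not tested. When a profile of all deposited barcodes of the library was subtracted in the amount read from these genes, 30.5% of the neutrophil-like UMIs of the inhibitor library and 21.0% of those of the control library were removed, and the log2 ratio became -5.80 for the mitochondrial sum and -1.34 for the nuclear sum. The amount is scaled by the share of these genes in all deposited barcodes, 0.132% in the inhibitor library and 2.20% in the control library. The percentages removed are thus not a like measure of free RNA between the libraries.

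Hepatocyte-like cells (140 inhibitor and 153 control cells) had more nuclear and fewer mitochondrial respiratory chain UMIs in the inhibitor library. The nuclear sum was 51608 CPM in the inhibitor library and 42503 CPM in the control library, a log2 ratio of 0.28 (0.26 to 0.30), and the mitochondrially encoded sum was 36586 CPM in inhibitor and 44866 CPM in control cells (log2 ratio -0.29, -0.32 to -0.27). The class was made of 2 clusters that hardly mixed. One led by Fabp1, Rgn and Akr1c6 held 138 inhibitor and 2 control cells, and one led by A2ml1, Bhmt and Rida held 2 inhibitor and 151 control cells. A further cluster, led by Igfbp1, Hpx and Alb, held 2 inhibitor and 161 control cells. Its best match was hepatocyte, but it was left without a name as mixed with T cell and is not in the class. The control side of the class thus leaves out many hepatocyte-marked barcodes. The nuclear difference was close to 0 when the cells were grouped more finely (log2 ratio 0.02), when each library was grouped alone (0.03), and when ribosomal, haemoglobin and hepatocyte secreted genes were left out of the denominator (0.04). Ribosomal protein genes were 10.4% of non-mitochondrial UMIs in the inhibitor cells and 21.9% in the control cells, and median depth was 3440.5 UMIs in the inhibitor library and 1388 UMIs in the control library.

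Complex II had the largest gap of the complexes in hepatocyte-like cells, with 1221 CPM in the inhibitor library and 857 CPM in the control library (log2 ratio 0.51, 0.36 to 0.66). Within it, Sdha, the flavoprotein that oxidises succinate, had 299.8 CPM in the inhibitor library and 148 CPM in the control library (log2 ratio 1.02, 0.67 to 1.39). Sdhd, a membrane anchor, had 327 CPM in inhibitor and 165 CPM in control cells (log2 ratio 0.99). The iron-sulphur subunit Sdhb was at 366 CPM in the inhibitor library and 347 CPM in the control library, and the other anchor, Sdhc, at 228 CPM in inhibitor and 197 CPM in control cells, both with intervals that held 0. The gap of the complex thus lay in Sdha and Sdhd.

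Of 76 nuclear members measured in hepatocyte-like cells, 15 were at least 1.5-fold higher in the inhibitor library and 1 was as far lower. Of all nuclear genes tested in the class, 26.1% were as far higher and 21.8% as far lower, so the share of members past the fold was below the background in both directions. The median log2 ratio of the members was 0.27, against 0.05 over all genes tested, and 64 of 76 were higher, 44 with the interval above 0. For these counts by direction and interval, too, no share over all genes is given here. Cox5a of complex IV had 1167 CPM in the inhibitor library and 585 CPM in the control library (log2 ratio 1.00, 0.82 to 1.18). Ndufs1, the large iron-sulphur subunit of complex I, had 101 CPM (114 UMIs) in inhibitor and 35.6 CPM (20 UMIs) in control cells, a log2 ratio of 1.504 (0.81 to 2.27), and Ndufa8, an accessory subunit, had 749.97 CPM in inhibitor and 407 CPM in control cells (log2 ratio 0.88). These genes were higher than their own complexes' sums, since complex I as a whole had a log2 ratio of 0.28 and complex IV one of 0.30.

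The 1 nuclear member past the fold in the other direction was Cox7a2l, counted here with complex IV. This gene had 308 CPM in the hepatocyte-like cells of the inhibitor library and 476 CPM in those of the control library (log2 ratio -0.63, -0.86 to -0.40). It stood at 0.95 when no mitochondrial limit was applied. Uqcrh was slightly lower, at 811 CPM in the inhibitor library and 953 CPM in the control library, as was Atp5g1, at 922 CPM in inhibitor and 1054 CPM in control cells, and Ndufa13 had 452 CPM in inhibitor and 546 CPM in control cells. Without the limit the log2 ratio of Atp5g1 was 1.51 and that of Ndufa13 0.48, so these directions also depend on it. Atp5g3, which encodes the same mature c subunit as Atp5g1, was at 499.7 CPM in the inhibitor library and 325 CPM in the control library (log2 ratio 0.62). The alpha and beta subunits of the ATP synthase head were higher in the inhibitor library, Atp5a1 with 885 CPM in inhibitor and 576 CPM in control cells (log2 ratio 0.62) and Atp5b with 1394 CPM in inhibitor and 1225 CPM in control cells (log2 ratio 0.19).

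The mitochondrially encoded genes were uneven in hepatocyte-like cells. mt-Nd3 had 1286 CPM in the inhibitor library and 818 CPM in the control library (log2 ratio 0.65, 0.50 to 0.81). mt-Nd1 had 2561 CPM in inhibitor and 2122 CPM in control cells (log2 ratio 0.27). mt-Nd2 went the other way, at 2092 CPM in the inhibitor library and 3226 CPM in the control library (log2 ratio -0.63), and so did mt-Cytb, at 3322 CPM in inhibitor and 4892 CPM in control cells (log2 ratio -0.56). mt-Co2, a catalytic subunit of complex IV that carries a copper centre, was level at 5959 CPM in inhibitor and 6087 CPM in control cells. A single hepatocyte-like cell had a median 0.915% mitochondrially encoded UMIs in the inhibitor library (quartiles 0.173% and 3.23%) and 5.77% in the control library (quartiles 2.21% and 10.6%), a wider gap than that of the sums, which are weighted by the deeper cells. The limit of 25% bears on this class: without it the class held 133 inhibitor and 625 control cells, and the log2 ratio of its mitochondrial sum was -7.30.

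**Figure D3:**
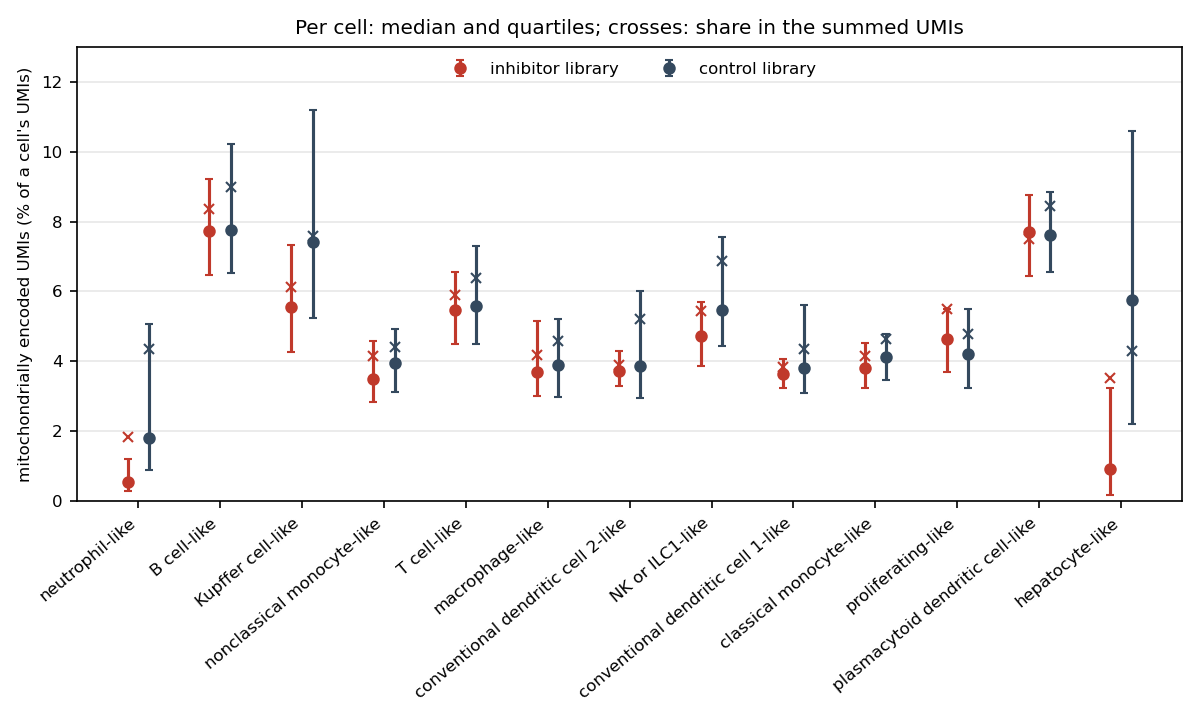
Mitochondrially encoded UMIs as a percentage of all UMIs of a cell in each class, as median (point) and quartiles (bar), with the inhibitor library in red on the left, the control library in dark blue on the right and the share in the summed UMIs as a cross. Neutrophil-like cells have medians of 0.531% in the inhibitor library and 1.81% in the control library and hepatocyte-like cells 0.915% in the inhibitor and 5.77% in the control library, while B cell-like cells are level at 7.74% in the inhibitor and 7.76% in the control library.

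Across the other classes the per-cell values lay closer together than the sums. With neutrophil-like and hepatocyte-like cells included, the median cell had a lower mitochondrial percentage in the inhibitor library in 11 of 13 classes. The third quartile was lower in 12 of the 13, but the first quartile in only 9. Conventional dendritic cell 2-like cells show this: their quartiles were 3.29%, 3.73% and 4.29% in the inhibitor library and 2.94%, 3.87% and 6.01% in the control library, so the libraries differed mainly in the cells of high percentage. In T cell-like cells the medians were 5.47% in the inhibitor library and 5.58% in the control library, and the third quartiles 6.56% in the inhibitor library and 7.30% in the control library. The 5 T cell-like clusters with 50 cells in each library had log2 ratios of the mitochondrial sum between -0.29 and -0.01, the nearest to 0 in a cluster led by interferon-induced genes (55 inhibitor and 445 control cells).

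Outside the neutrophil-like and hepatocyte-like cells, few nuclear members differed by 1.5-fold. The other 11 classes gave 835 values of a member in a class, of which 8 were that far higher and 6 that far lower in the inhibitor library, together 1.68%. A count of 0 was set to 3 UMIs for these ratios, which can turn a direction where 1 library has few cells. Cox7a1 in classical monocyte-like cells, counted among the 6 lower values, had no UMI in the control cells there. Over all nuclear genes in the same classes the share past 1.5-fold was 24.2%, with counts of 0 set to 3 UMIs in the same way. This can put sparse genes past the fold where 1 library has few cells. The 1.68% and the 24.2% are thus not a like comparison. Among genes with at least 100 UMIs the members gave 8 of 816, beside 14.5% of all genes, and many of these genes still have fewer UMIs than the members. By class, the members past the fold were 1 of 76 in T cell-like cells (background 14.6%), 1 of 75 in B cell-like cells (15.7%), 1 of 75 in NK or ILC1-like cells (18.3%) and 3 of 78 in classical monocyte-like cells (36.8%). They were 0 of 75 in nonclassical monocyte-like cells (25.3%), 0 of 75 in Kupffer cell-like cells (31.3%), 2 of 77 in macrophage-like cells (29.5%) and 0 of 76 in proliferating-like cells (28%). In the dendritic cells they were 3 of 75 in the conventional 1-like (22.6%), 2 of 77 in the conventional 2-like (21.8%) and 1 of 76 in the plasmacytoid-like cells (18.8%).

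**Figure D4:**
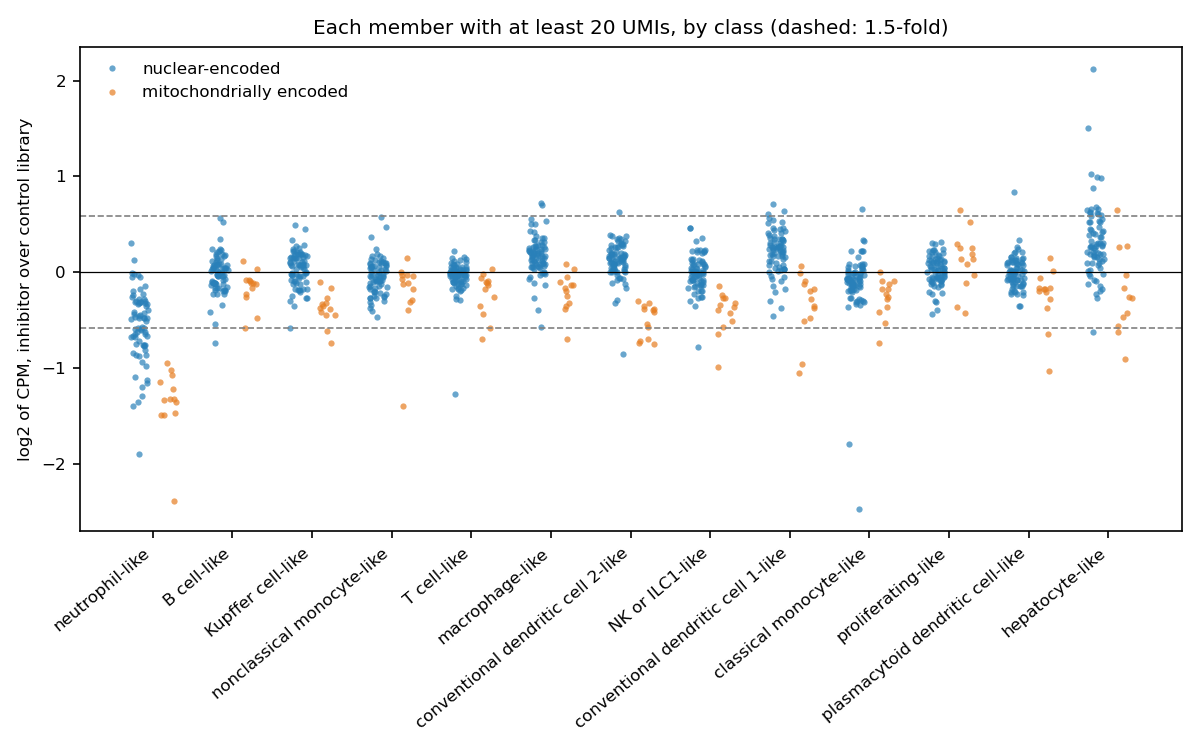
Log2 ratio of the CPM, inhibitor library over control library, of every member with at least 20 UMIs in each class, nuclear-encoded in blue on the left and mitochondrially encoded in orange on the right, with dashed lines at 1.5-fold. The nuclear members lie in a narrow band around 0 in most classes and are spread downwards in neutrophil-like cells, where 32 of 73 pass the lower line and all 13 mitochondrial genes do.

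In 3 myeloid classes most nuclear members were slightly higher in the inhibitor library. They were higher in 65 of 77 cases in macrophage-like cells (61 inhibitor and 630 control cells, median log2 ratio 0.17), in 64 of 75 in conventional dendritic cell 1-like cells (70 inhibitor and 94 control cells, median 0.24) and in 64 of 77 in conventional dendritic cell 2-like cells (234 inhibitor and 258 control cells, median 0.13). The 65 include Atp5s, which had 0 UMIs in the inhibitor library and 24 in the control library. It counts as higher only because a 0 was set to 3 UMIs. Medians over all nuclear genes tested in the same classes were 0.09, 0.08 and 0.05. The share of all genes that were higher is not given here. Free RNA, estimated from the hepatocyte secreted genes, was put at 22.8% of the macrophage-like UMIs in the inhibitor library and 6.70% in the control library. These estimates rest on unlike profiles of the libraries, and the share of the secreted genes themselves was lower in the inhibitor library. The part of free RNA in these differences was not tested. In macrophage-like cells Ndufs8, an iron-sulphur subunit of complex I, had 178 CPM in the inhibitor library and 107 CPM in the control library (log2 ratio 0.73, 0.39 to 1.05), Uqcrc1, a core protein of complex III, had 174 CPM in inhibitor and 107 CPM in control cells (log2 ratio 0.70). Sdhb had 235 CPM in inhibitor and 160.4 CPM in control cells (log2 ratio 0.55). In conventional dendritic cell 1-like cells Ndufb4 had 210 CPM in the inhibitor library and 135 CPM in the control library (log2 ratio 0.64). The c subunit gene Atp5g1, lowest in neutrophil-like cells, had 419 CPM in inhibitor and 293 CPM in control cells there (log2 ratio 0.51, 0.29 to 0.73).

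Conventional dendritic cell 2-like cells had Ndufb2, an accessory subunit of complex I, at 110.5 CPM in the inhibitor library and 71.3 CPM in the control library (log2 ratio 0.63, 0.34 to 0.93). The ATP synthase subunits Atp5h and Atp5b were higher by less, Atp5b with 547 CPM in inhibitor and 429 CPM in control cells (log2 ratio 0.35). Cox7a2l was lower in both kinds of conventional dendritic cell-like cells, with 401 CPM in inhibitor and 552 CPM in control 1-like cells (log2 ratio -0.46) and 472 CPM in inhibitor and 589 CPM in control 2-like cells (log2 ratio -0.32). In the plasmacytoid-like cells the same gene had 554 CPM in inhibitor and 478 CPM in control cells. The mitochondrial sum of the 2-like cells was 40678 CPM in the inhibitor library and 55121 CPM in the control library, a log2 ratio of -0.44 and the lowest after neutrophil-like cells.

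Kupffer cell-like cells (198 inhibitor and 125 control cells) had a mitochondrially encoded sum of 65130 CPM in the inhibitor library and 82005 CPM in the control library (log2 ratio -0.33) beside a nuclear sum of 18931 CPM in inhibitor and 18092 CPM in control cells. Atp5d, the delta subunit of the ATP synthase, had 287 CPM in the inhibitor library and 204 CPM in the control library (log2 ratio 0.50, 0.27 to 0.73). Cox5a had 1101 CPM in inhibitor and 928 CPM in control cells (log2 ratio 0.25), and Ndufs1 was lower, at 33.0 CPM in inhibitor and 49.4 CPM in control cells (log2 ratio -0.58, -1.11 to -0.05). Median depth in this class was 14012.5 UMIs in the inhibitor library and 7844 UMIs in the control library. Free RNA, estimated from the hepatocyte secreted genes, was put at 57.3% of the UMIs of the class in the inhibitor library and 13.6% in the control library. As in macrophage-like cells, the estimates rest on unlike profiles, and the share of the secreted genes themselves was lower in the inhibitor library. The part of free RNA in these differences was not tested.

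The classical monocyte-like cells rested on 2963 inhibitor and only 65 control cells. Their nuclear sum was 24150 CPM in the inhibitor library and 25596 CPM in the control library, and the lowest members by interval were Cox8a, at 790.4 CPM in inhibitor and 966 CPM in control cells (log2 ratio -0.29, -0.42 to -0.16), and Ndufa13, at 447 CPM in inhibitor and 553 CPM in control cells. No member was higher with its interval above 0. Nonclassical monocyte-like cells (256 inhibitor and 80 control cells) had Cox8a at 536 CPM in inhibitor and 661 CPM in control cells (log2 ratio -0.30). A further monocyte cluster, led by Lyz2, Ace and Clec4a3 and left without a name because those genes mix classes (792 inhibitor and 318 control cells), had a nuclear sum of 22287 CPM in the inhibitor library and 22583 CPM in the control library and a mitochondrial sum of 40863 CPM in inhibitor and 52162 CPM in control cells.

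Among lymphocytes, T cell-like cells had the most UMIs and the narrowest intervals. The make-up of this class differed between the libraries. A cluster led by Dapl1, Txk and Gzmm held 582 inhibitor and 191 control cells. The cluster led by interferon-induced genes held 55 inhibitor and 445 control cells, and one led by Il17a and Trdc 26 inhibitor and 249 control cells. The part of this make-up in the small differences that follow was not tested. Uqcrc1 had 99.9 CPM in the inhibitor library and 85.7 CPM in the control library (log2 ratio 0.22, 0.08 to 0.36), Atp5b had 431 CPM in inhibitor and 395 CPM in control cells (log2 ratio 0.13). Ndufv2, a flavoprotein subunit of complex I, had 126 CPM in inhibitor and 113 CPM in control cells (log2 ratio 0.16). Cox7c was lower, at 617 CPM in the inhibitor library and 703 CPM in the control library (log2 ratio -0.19), as were Ndufs5, at 116 CPM in inhibitor and 142 CPM in control cells, and Atp5j, at 350.1 CPM in inhibitor and 401 CPM in control cells. Cox4i1, at 764 CPM in inhibitor and 763 CPM in control cells, and Cox5a, at 369 CPM in inhibitor and 360.5 CPM in control cells, were level. The only nuclear member past 1.5-fold was Atp5s, with 27 UMIs in the inhibitor library and 56 in the control library (log2 ratio -1.28).

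In B cell-like cells (346 inhibitor and 601 control cells) the c subunit gene Atp5g3 was lowest, with 89.1 CPM in the inhibitor library and 149 CPM in the control library (log2 ratio -0.74, -1.11 to -0.39), and Uqcrc1 was highest, with 114 CPM in inhibitor and 77.5 CPM in control cells (log2 ratio 0.56, 0.19 to 0.92). NK or ILC1-like cells (257 inhibitor and 220 control cells) joined a cluster led by Xcl1 and Gzmc (101 inhibitor and 152 control cells) and one led by Gzma and Klra4 (156 inhibitor and 68 control cells), so the make-up of the class differed between the libraries. Over the class Ndufa5, an accessory subunit of complex I, had 108 CPM in the inhibitor library and 186 CPM in the control library (log2 ratio -0.78, -1.15 to -0.42). Sdha had 119 CPM in inhibitor and 86.4 CPM in control cells (log2 ratio 0.46). Within the clusters the log2 ratio of Ndufa5 was -0.84 (-1.33 to -0.38) in the Xcl1 cluster and -0.24 (-0.95 to 0.51) in the Gzma cluster. That of Sdha was 0.18 (-0.39 to 0.75) in the Xcl1 cluster and 0.99 (0.14 to 1.93) in the Gzma cluster. Proliferating-like cells (75 inhibitor and 116 control cells) had Ndufc2 at 223 CPM in inhibitor and 301 CPM in control cells (log2 ratio -0.44) and Ndufa4 at 710.4 CPM in inhibitor and 609 CPM in control cells (log2 ratio 0.22).

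Over the 13 classes, members did not lean one way more often than other genes. Of the 73 nuclear members measured in every class, 4 were higher in the inhibitor library in at least 11 classes, beside 7.14% of all nuclear genes measured in every class. These were the ATP synthase subunits Atp5a1, Atp5b and Atp5c1 and the complex III core protein Uqcrc2. Cox8a and the complex I subunit Ndufa3 were lower in at least 11 classes, beside 5.68% of all genes. Their median log2 ratios were small, at 0.17 for Atp5b and -0.12 for Cox8a. The classes share 1 library per group, so a count over classes is not a count of replicates.

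In medians over the classes, the division of the nuclear transcripts among the complexes was much the same in both libraries. Complex I made up a median over the classes of 28.2% of the nuclear sum in the inhibitor library and 28.1% in the control library and complex II 1.68% in the inhibitor library and 1.65% in the control library. Complex III made up 10.3% in the inhibitor library and 10.4% in the control library, complex IV 29.2% in the inhibitor and 29.6% in the control library, and complex V 29.9% in the inhibitor and 29.6% in the control library. Single classes differed more. Complex IV made up 27.5% in the inhibitor library and 29.7% in the control library in conventional dendritic cell 1-like cells. In neutrophil-like cells complex I made up 25.8% in the inhibitor library and 27.5% in the control library. The highest share of complex III in any class was 15.1% in the inhibitor library and 14.3% in the control library. These are shares of 3′ tags, 1 per molecule, and count transcripts rather than proteins.

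The mitochondrial transcripts differed by gene as well as by class. Outside neutrophil-like cells, 132 of 155 values of a mitochondrial gene in a class were lower in the inhibitor library, 18 of them by at least 1.5-fold, and 2 were that far higher. Over all nuclear genes in the same 12 classes 14.3% were as far lower and 11.4% as far higher. Many of those nuclear genes have far fewer UMIs than most mitochondrial genes, so these shares are not a like comparison. The mitochondrial genes with the fewest UMIs passed the fold most often. With neutrophil-like cells included, mt-Nd6 was as far lower in 8 classes and mt-Atp8 in 6. mt-Atp8, an accessory ATP synthase subunit, and mt-Nd4l, a small complex I subunit, were lower in 13 of 13 classes each, with median log2 ratios of -0.58 and -0.48, and mt-Nd6 was lower in 11 of 12 with a median of -0.70. mt-Nd1 was higher in 6 classes and lower in 7, and mt-Nd3 higher in 8 and lower in 5. As a share of all mitochondrially encoded UMIs, mt-Cytb had a median over classes of 7.89% in the inhibitor library and 9.21% in the control library, whereas mt-Co3 had 20.2% in the inhibitor library and 20.3% in the control library and mt-Co1 16.1% in both. In T cell-like cells mt-Cytb had 4930 CPM in the inhibitor library and 6280 CPM in the control library (log2 ratio -0.35). mt-Nd1 had 2749 CPM in inhibitor and 2794 CPM in control cells (log2 ratio -0.02). mt-Atp8 and mt-Atp6, and mt-Nd4l and mt-Nd4, overlap on the same transcripts, so their tags may not be counted apart.

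Tissue isoforms were sparse with 1 exception. Cox4i2, the lung isoform of subunit IV, had 9 UMIs in the whole inhibitor library and 15 in the control library, and Ndufa4l2, which hypoxia induces, had 14 in the inhibitor library and 6 in the control library. Cox7a1, a heart and muscle isoform, had 31.0 CPM (35 UMIs) in the hepatocyte-like cells of the inhibitor library and 7.11 CPM (4 UMIs) in those of the control library (log2 ratio 2.12, 0.64 to 4.08). Cox6b2, known as a testis isoform, had 13.1 CPM in the classical monocyte-like cells of the inhibitor library and 16.0 CPM in those of the control library, and 20.2 CPM in inhibitor and 16.6 CPM in control conventional dendritic cell 2-like cells. In T cell-like cells it was at 0.600 CPM in inhibitor and 1.05 CPM in control cells.

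The exception was Cox6a2, the isoform of subunit VIa known from heart and skeletal muscle. In plasmacytoid dendritic cell-like cells it had 1538 CPM (1433 to 1650) in the inhibitor library and 1972 CPM (1891 to 2056) in the control library, a log2 ratio of -0.36 (-0.48 to -0.24). Of the Cox6a2 UMIs of all kept cells, 788 of 816 (96.6%) in the inhibitor library and 2234 of 2341 (95.4%) in the control library lay in this class, which held 0.880% of the inhibitor cells and 2.49% of the control cells. The gene was among the 10 that led the cluster, although the grouping left it out. Between cells thinned to 1000 UMIs, a Cox6a2 UMI was seen in 61.8% of 76 inhibitor cells and 72.5% of 160 control cells. Before thinning it was 87.0% of inhibitor cells and 90.7% of control cells, at median depths of 7135 UMIs in the inhibitor library and 7685 UMIs in the control library. T cell-like cells, thinned the same way, had a Cox6a2 UMI in 0.0394% of inhibitor cells and 0.0437% of control cells, at median depths of 3713.5 UMIs in the inhibitor library and 3584 UMIs in the control library, which is read as background.

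Cox6a1, the isoform found in most tissues, was in every class. In the plasmacytoid dendritic cell-like cells it had 259.6 CPM in the inhibitor library and 243 CPM in the control library, near its 205 CPM in inhibitor and 193 CPM in control T cell-like cells. Among the other classes the largest Cox6a2 levels were 4.70 CPM in the inhibitor library and 8.54 CPM in the control library, in conventional dendritic cell 2-like cells. The 2 isoforms thus had unlike patterns: Cox6a1 was found in every class, and Cox6a2 lay nearly all in a single class in both libraries.

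**Figure D5:**
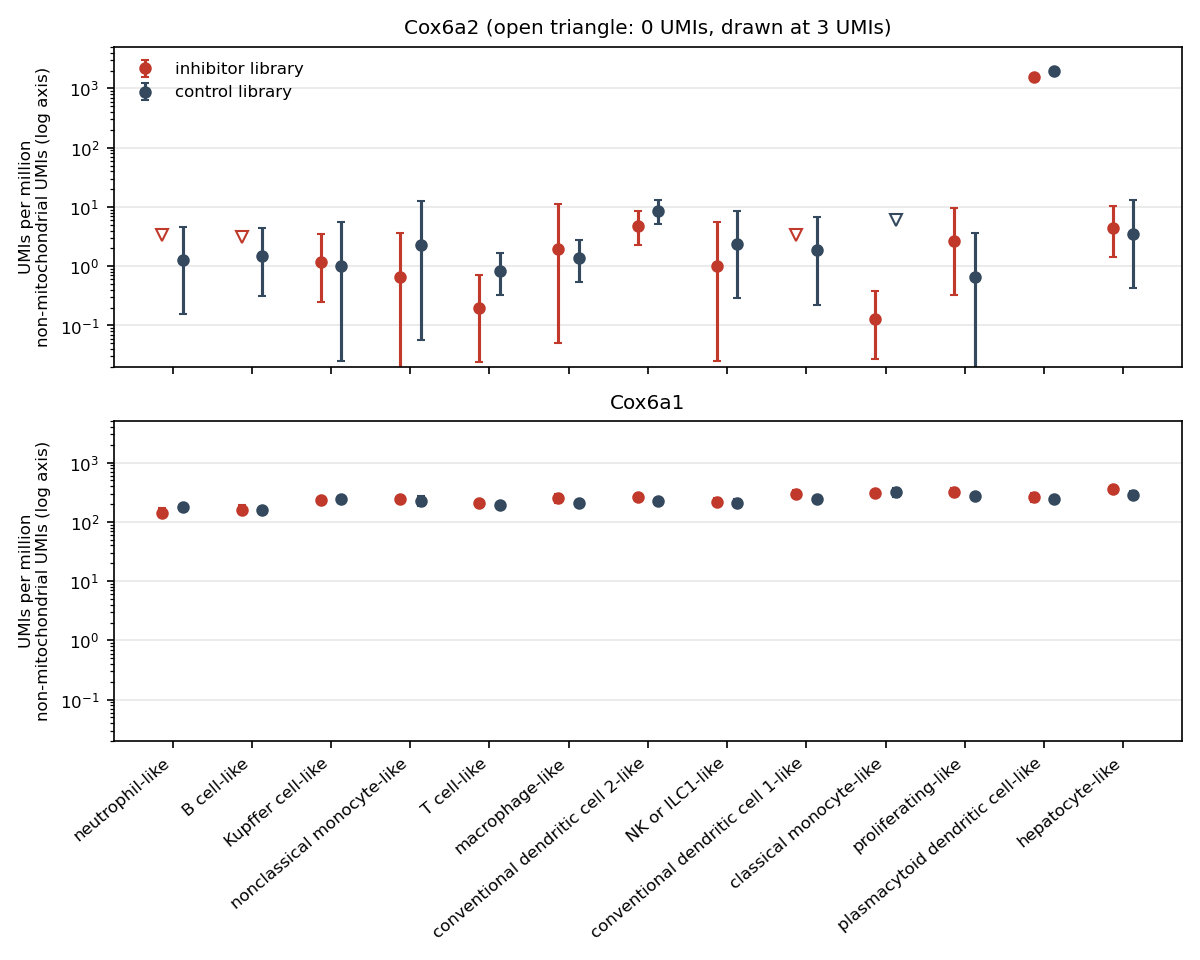
CPM of Cox6a2 (upper panel) and Cox6a1 (lower panel) in each class on log axes, with exact counting intervals, the inhibitor library in red on the left and the control library in dark blue on the right; an open triangle marks a class with 0 UMIs, drawn at the level of 3 UMIs. Cox6a2 stands in plasmacytoid dendritic cell-like cells at 1538 CPM in the inhibitor library and 1972 CPM in the control library, and below 10 CPM elsewhere, while Cox6a1 is of one order of magnitude throughout.

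The promoters of the nuclear members were searched for letters that factors known for respiratory genes bind: the NRF1 core GCGCATGC, the ETS or GABP site CCGGAAGT and the YY1 site AAGATGGC, each on both strands. The NRF1 letters are a form shortened after a longer one had been searched and its result seen. RefSeq promoters (GRCm38.p6) were matched for 67 of the 84 nuclear symbols, and the 250 bases before the start were read. The NRF1 letters were in 8 of 67 members (11.9%) and in 626 of 27025 promoters (2.32%), the ETS or GABP letters in 3 members (4.48%) and 792 promoters (2.93%), and the YY1 letters in 0 members and 429 promoters (1.59%). A match describes the letters and is no sign of binding, and no match says only that these letters are not in this window. Cox6a2 and Ndufs1 have no entry. The members with the NRF1 letters were Atp5g2, Atp5k, Atp5l, Cox6a1, Ndufa6, Ndufa8, Ndufa11 and Sdhb. They did not differ between the libraries by a like amount: in hepatocyte-like cells the log2 ratio was 0.88 for Ndufa8, 0.32 for Cox6a1 and 0.08 for Sdhb. The stretches of 4 genes whose values are given above are shown to set the site in its surroundings, 5′ to 3′ on the gene's strand, with the NRF1 letters of either strand in capitals, which overlap in Atp5g2 and Cox6a1. They lie at chr15:102671055-102671114 (Atp5g2, minus strand), chr5:115349086-115349145 (Cox6a1, minus strand), chr2:36049339-36049371 (Ndufa8, minus strand) and chr4:140961192-140961249 (Sdhb, plus strand).
Atp5g2: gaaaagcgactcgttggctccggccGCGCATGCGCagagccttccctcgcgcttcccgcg
Cox6a1: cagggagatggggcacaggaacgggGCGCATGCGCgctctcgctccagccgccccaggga
Ndufa8: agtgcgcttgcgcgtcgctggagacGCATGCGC
Sdhb: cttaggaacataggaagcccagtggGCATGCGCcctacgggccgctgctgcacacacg

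Genes around the respiratory chain were read in the classes that differed most. In neutrophil-like cells, 32 of the 48 measured genes of the mitochondrial ribosome were at least 1.5-fold lower in the inhibitor library and 0 as far higher (median log2 ratio -0.90), beside 26.5% lower and 4.6% higher over all nuclear genes of the class. Mrpl52 was at 30.9 CPM in the inhibitor library and 170 CPM in the control library. Mrpl33 was at the other end, with 975 CPM in inhibitor and 675 CPM in control cells. Of 12 tricarboxylic acid cycle genes 4 were as far lower and 0 higher, a share not far from that background, and Mdh2, the matrix malate dehydrogenase, was at 129 CPM in inhibitor and 249.9 CPM in control cells. Of 21 assembly factors 8 were lower and 1 higher, also not far from it. Ucp2, an inner membrane carrier, was higher at 614 CPM in the inhibitor library and 444 CPM in the control library (log2 ratio 0.47). Cycs, the somatic cytochrome c, had 12.2 CPM in inhibitor and 32.9 CPM in control cells.

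In hepatocyte-like cells the lists are read beside the 26.1% of all nuclear genes of the class that were at least 1.5-fold higher and the 21.8% that were as far lower. Of 17 tricarboxylic acid cycle genes 9 were at least 1.5-fold higher in the inhibitor library and 0 lower (median log2 ratio 0.64), with Idh3a, a catalytic subunit of the NAD-dependent isocitrate dehydrogenase, at 164 CPM in the inhibitor library and 24.9 CPM in the control library. Of 15 genes of electron carriers and ubiquinone synthesis 6 were higher and 0 lower, among them Etfa, which takes electrons from fatty acid oxidation, at 752 CPM in inhibitor and 270.2 CPM in control cells. Of 77 mitochondrial ribosome genes 7 were higher and 6 lower, and of 39 assembly factors 9 were higher and 5 lower, both below the background in each direction. Chchd10, a protein of the intermembrane space, had 3876 CPM in the inhibitor library and 1532 CPM in the control library.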

How the data were processed

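UMI counts per gene and barcode were used as the authors deposited them, whole numbers made with Cell Ranger 5.0.1 per the file headers; Cell Ranger, R 3.0, Seurat 3 and the build mm9 are named in the submitters' processing notes. Barcodes with at least 300 genes, at least 500 UMIs and at most 25% mitochondrial UMIs were kept. Doublets were scored against simulated pairs (2 per cell) and the top 0.8% per 1000 barcodes removed. Both libraries were clustered together without integration, without respiratory chain or other mitochondrial genes: 2000 variable genes, 30 components, 20 neighbours, Leiden resolution 1. A cluster was named from at least 3 markers that were 2-fold above the median cluster, and this scoring rule was set after the clusters were seen. UMIs were summed per library and class. With 1 library per group no test was made: sums have exact Poisson intervals and ratios exact conditional binomial intervals, except that the mitochondrial to nuclear ratio has a normal approximation on the log scale, for counting error only. Members were counted at 1.5-fold among genes with at least 20 UMIs over both libraries. For ratios of single genes a count of 0 was set to 3 UMIs, and no ratio was given where both counts were at most 3. Named were the mitochondrial genes, the 5 highest and lowest nuclear members per class by the interval bound nearest to no difference (at least 50 UMIs), fixed core subunits and isoforms, and examples of each other list. Atp5s, Atp5g2 and Atp5g3, the clusters within NK or ILC1-like cells and members summed over classes were singled out after their values were seen. The members and lists were chosen with earlier results of these data known. For the NRF1 motif a longer form of the letters was searched first; the shorter form reported here, which by construction matches at least as many promoters, was taken after that first result had been seen. The interval code was checked on simulated counts. Python 3.11.15, numpy 2.4.6, scipy 1.17.1, pandas 2.3.3, scikit-learn 1.9.0, leidenalg 0.10.2 and matplotlib 3.10.9 were used.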

Additional observations from a re-analysis of the deposited data

How the results depend on the processing

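Over 3290 values under other settings, 2731 stayed within the counting interval or within 1.5 times the count, 558 moved further and 1 that was past 1.5-fold changed sign, the hepatocyte-like Cox7a2l at 0.95 with no mitochondrial limit. The sums and ratios kept their sign in 1132 of 1240 cases. The neutrophil-like mitochondrial sum (log2 ratio -1.28) was -1.37 with no mitochondrial limit, -1.07 with a limit of 10%, -1.35 with no doublets removed and -1.34 with doubled removal. It was -1.24 over all UMIs, -1.30 with ribosomal, haemoglobin and hepatocyte secreted genes left out of the denominator and -1.36 as a mean over cells. Free RNA subtraction took it to -5.80 and the nuclear sum to -1.34. The -5.80 compares small remainders, since the subtraction took about as many mitochondrial UMIs as these cells held. The hepatocyte-like nuclear sum (0.28) was 1.72 with no limit, 0.59 with 10%, 0.23 with at least 600 genes, 0.61 at resolution 0.5, 0.024 at resolution 2, 0.028 with separate clustering, 0.035 with the reduced denominator and 0.25 as a mean over cells. With separate clustering the mitochondrial sum and the ratio were lower in 6 of 8 classes each, and 7 of 8 nuclear sums were at most 25% above or 20% below the control. With free RNA subtracted the mitochondrial sum was lower in 7, the ratio in 6 and the nuclear sum higher in 4 of 12 classes, and with doubled doublet removal the nuclear sum was higher in 4 of 10. Apart from the settings' own construction the cause was not tested. Without the mitochondrial limit 11 of 12 classes had a lower mitochondrial sum, at -0.53 in T cell-like and -1.09 in nonclassical monocyte-like cells. Free RNA subtraction was not run for hepatocyte-like cells. No paired analysis was possible because each group has 1 library. Rare members, such as Atp5s, are limited by their UMIs, and classes with few cells in 1 library by those cells.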
